A study of Mus musculus with 10 samples.

Results

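Windows of 1000 bp in which DNA methylation was lower in leukaemias carrying a Dnmt3b knockin than in WT leukaemias were examined in the cMyc-Bcl2 model. A window was taken when both knockin libraries lay below both WT libraries and the knockin mean was at least 10 percentage points lower. It had to lie on an autosome and to hold 3 or more CpGs that each had 10 or more reads in every one of the 4 libraries. Of 55549 windows with that coverage, 1590 (2.86%) met the rule and are called the losing windows. The mirrored rule, higher in both knockin libraries by the same margin, was met by 7159 windows (12.9%). The losing windows were chosen by the levels in the 4 cMyc-Bcl2 libraries, so these are given as a description without a test, whereas the 6 MLL-AF9 libraries did not enter the rule.

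The DNA came from leukaemic spleens of mice. In reduced representation bisulfite sequencing, the assay used, MspI fragments rich in CpGs are sequenced after unmethylated cytosines have been converted. The cMyc-Bcl2 leukaemias, driven by the cMyc transcription factor together with Bcl2, which blocks cell death, gave 2 WT and 2 knockin libraries. The MLL-AF9 leukaemias, driven by a fusion oncoprotein, gave 3 WT and 3 knockin libraries of c-kit+ cells. The knockin is a tetracycline-inducible Dnmt3b allele, compared with Dnmt3b at its physiological level. The sources used here do not give the promoter that drives it, the inducer, the age of the mice or any sorting of the cMyc-Bcl2 cells. The labels do not say that libraries of a group came from separate animals, so a p-value refers to the spread among the libraries, which may be technical.

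Dnmt3b is a de novo DNA methyltransferase, which adds methyl groups to CpGs that carry none on either strand. Most CpGs of the mouse genome outside CpG islands are methylated, while CpG islands at promoters mostly are not. Methylation is lost when it is not copied after DNA replication, or when TET enzymes oxidise it. A level here is the percentage of reads called methylated over all cells of a library, so a lower level in every cell and a smaller share of methylated cells cannot be told apart.

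Of the losing windows, 28 held a counted CpG inside a RefSeq promoter sequence (250 bases before to 50 bases after a gene's start, table build GRCm38.p6) that could be placed on the deposited mm9 positions by its spacing of CpGs. For 5 of those placed by 6 or more CpGs, namely Ldhd, Pnliprp2, Fut1, Fer and Nlrp5, all counted CpGs of the window lay within the sequence, so the difference can be read in it. These are shown with Coro6, which was added after its values were seen and has 5 of its 6 counted CpGs in the sequence. All are written 5′ to 3′ on the strand of the gene, and capitals mark the CpGs that were counted. In mm9 they lie at chr8:114154187-114154486 on the minus strand (Ldhd), chr11:77277163-77277462 (Coro6), chr19:58833963-58834262 (Pnliprp2), chr7:52872726-52873025 (Fut1), chr17:64287071-64287370 (Fer) and chr7:24170658-24170957 (Nlrp5), the last 5 on the plus strand.
Ldhd: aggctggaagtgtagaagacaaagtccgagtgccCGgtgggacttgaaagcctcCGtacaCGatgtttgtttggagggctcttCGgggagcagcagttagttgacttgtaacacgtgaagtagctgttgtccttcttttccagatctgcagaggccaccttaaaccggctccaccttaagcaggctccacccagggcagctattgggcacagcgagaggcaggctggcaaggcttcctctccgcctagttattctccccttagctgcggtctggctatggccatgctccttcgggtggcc
Coro6: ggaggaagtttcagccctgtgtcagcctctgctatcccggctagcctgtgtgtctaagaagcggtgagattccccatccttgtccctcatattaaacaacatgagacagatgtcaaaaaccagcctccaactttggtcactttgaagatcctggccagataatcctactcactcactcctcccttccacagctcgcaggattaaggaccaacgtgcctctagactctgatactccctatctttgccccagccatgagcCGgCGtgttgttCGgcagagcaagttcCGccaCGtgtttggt
Pnliprp2: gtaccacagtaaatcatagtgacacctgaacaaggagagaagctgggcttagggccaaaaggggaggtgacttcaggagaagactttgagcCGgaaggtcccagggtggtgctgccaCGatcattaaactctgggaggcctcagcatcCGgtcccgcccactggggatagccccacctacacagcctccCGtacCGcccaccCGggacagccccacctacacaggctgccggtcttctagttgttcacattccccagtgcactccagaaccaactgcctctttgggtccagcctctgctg
Fut1: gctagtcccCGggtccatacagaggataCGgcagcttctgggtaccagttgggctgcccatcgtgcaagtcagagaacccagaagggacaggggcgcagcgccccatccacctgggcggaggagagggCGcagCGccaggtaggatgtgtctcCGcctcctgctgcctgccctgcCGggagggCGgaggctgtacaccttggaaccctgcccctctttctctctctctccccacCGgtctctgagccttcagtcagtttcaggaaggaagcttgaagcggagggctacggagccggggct
Fer: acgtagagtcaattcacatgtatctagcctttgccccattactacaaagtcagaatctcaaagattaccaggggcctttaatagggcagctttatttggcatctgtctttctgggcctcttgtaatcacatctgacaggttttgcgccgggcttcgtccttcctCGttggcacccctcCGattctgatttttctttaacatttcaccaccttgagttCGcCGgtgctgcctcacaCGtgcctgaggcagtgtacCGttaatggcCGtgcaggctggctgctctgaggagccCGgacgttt
Nlrp5: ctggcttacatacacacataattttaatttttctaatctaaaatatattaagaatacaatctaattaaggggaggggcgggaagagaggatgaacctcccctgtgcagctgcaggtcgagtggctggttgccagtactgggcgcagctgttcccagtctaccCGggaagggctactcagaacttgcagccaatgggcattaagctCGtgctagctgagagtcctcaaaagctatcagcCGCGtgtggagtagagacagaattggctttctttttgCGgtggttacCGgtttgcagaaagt

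Ldhd encodes the D-lactate dehydrogenase of mitochondria. The 4 counted CpGs of its promoter were methylated at 48.3% and 75.7% in the WT libraries and at 26.0% and 48.0% in the knockin libraries. Knockin replicate 2 was thus nearly level with WT replicate 1. Coro6 encodes a coronin, a protein that binds actin. Its window stood at 80.8% and 84.9% in WT and at 64.6% and 65.4% in knockin. Pnliprp2 encodes a lipase of the pancreas, and its 6 CpGs were at 64.5% and 54.7% in WT and 42.0% and 42.8% in knockin. In both windows the gap between genotypes exceeded the gap within each.

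Fut1 encodes the fucosyltransferase that makes the H antigen. The 8 CpGs of its promoter were at 27.1% and 28.7% in WT and at 15.2% and 13.8% in knockin. The promoters of Fer, a non-receptor tyrosine kinase, and Nlrp5, a maternal gene of the oocyte, were nearly fully methylated in WT. Fer stood at 94.3% and 95.1% in WT and at 84.8% and 82.1% in knockin, over 8 CpGs. Nlrp5 stood at 89.5% and 95.5% in WT and at 80% and 84.2% in knockin, over 6 CpGs. Losing promoters therefore ranged from weakly to strongly methylated in WT.

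The 10 libraries held 14446933 to 46762220 read calls, and after the strands of a CpG were joined 494106 to 912728 CpGs per library had at least 10 reads. Mitochondrial CpGs, a guide to unconverted cytosines, were called methylated in 2.22% and 0.910% of reads in cMyc-Bcl2 WT and in 0.926% and 1.15% in knockin. WT replicate 1 thus stood above the other 3 cMyc-Bcl2 libraries, and the part of this in the losing windows was not tested. In MLL-AF9 they were 1.8%, 2.4% and 2.6% in WT and 2.6%, 3.2% and 2.0% in knockin. The part of these calls in the MLL-AF9 differences was not tested either. Expression was not measured in these files, and none of the listed B cell, T cell, myeloid, erythroid or endothelial marker genes had a placed promoter with counted CpGs, so the labelled cell type could not be checked.

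The loss was moderate in most losing windows. The knockin minus WT difference had a median of -14.9 points and ranged from -65.1 to -10.02 points. It was at least 20 points lower in 404 windows (25.4%) and at least 40 points lower in 40. The median level was 83.0% and 84.4% in the WT libraries, and 66.7% and 62.0% in the knockin libraries. Over all 55549 windows the order was the opposite, with medians of 57.0% and 58.6% in WT and 68.3% and 64.4% in knockin. Knockin replicate 2 was the lowest library in 1030 losing windows (64.8%), and it was the lower of the knockin libraries in 54.8% of all windows.

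**Figure D1:**
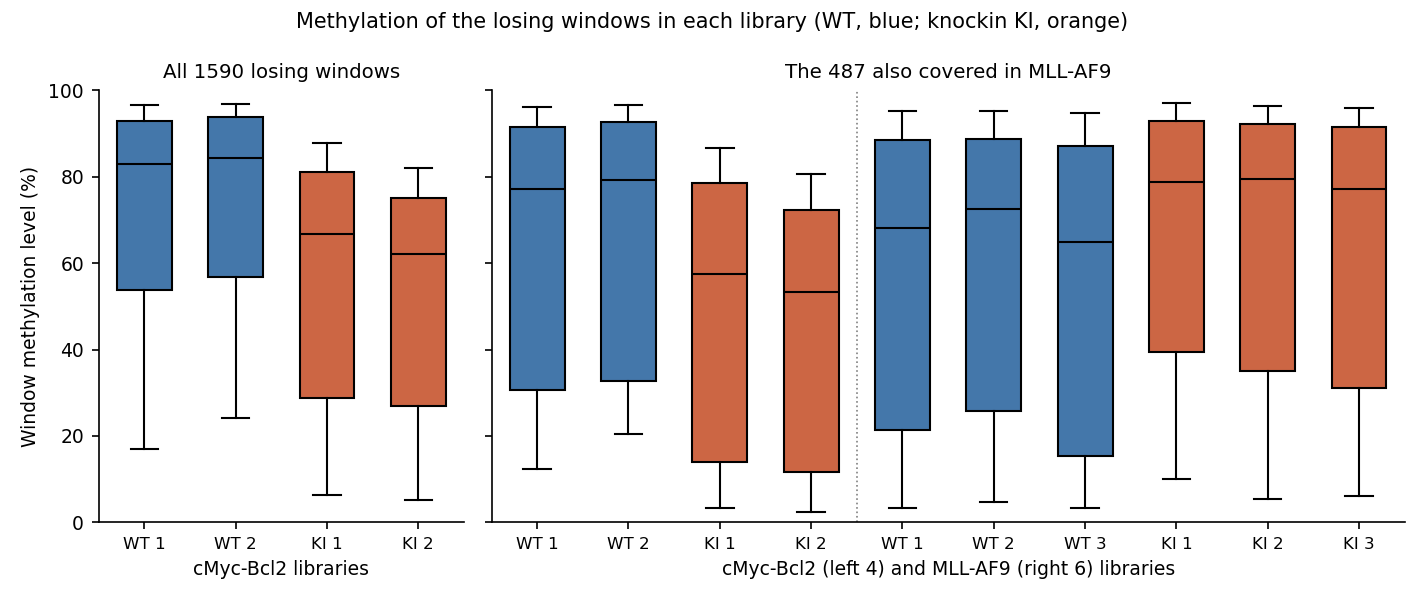
Methylation level (%) of the losing windows in each library, for all 1590 windows in cMyc-Bcl2 (left) and for the 487 that were also covered in MLL-AF9 (right). Boxes span the quartiles with the median as a line, and whiskers reach the 10th and 90th percentiles. In MLL-AF9 the 3 knockin medians, 77.2% to 79.5%, lie above the 3 WT medians, 64.9% to 72.5%. Over all 28077 windows covered in both models the knockin medians, 5.4% to 7.9%, also lie above the WT medians, 3.8% to 4.4%.

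Separation between the genotypes was often narrow. The lowest WT library stood 6.86 points above the highest knockin library at the median, and by less than 2 points in 233 losing windows (14.7%). The gap was at least 10 points in 447 (28.1%). The WT libraries of a losing window differed by 5.55 points at the median and its knockin libraries by 7.97 points, against 2.81 and 2.54 points over all windows. The windows just inside the threshold, chr4:119166617-119166698 and chr4:140203236-140203394, differed by -10.02 and -10.03 points, and those just outside it, chr19:8912364-8912665 and chr10:60711650-60711766, by -9.99 points each.

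Each of the 6 ways of setting 2 of the 4 libraries below the other 2 was counted with the same margin. The losing windows, with both knockin libraries below, numbered 1590. The 4 pairs that mixed genotypes gave 1403 windows (WT replicate 1 with knockin replicate 1 below), 2474 (WT replicate 1 with knockin replicate 2), 1161 (WT replicate 2 with knockin replicate 1) and 2456 (WT replicate 2 with knockin replicate 2). The number of losing windows thus lay inside the range of the mixed pairs, and the mirrored rule, with both WT libraries below, stood above all of them at 7159. At a margin of at least 20 points the losing windows numbered 404, the mixed pairs 510, 738, 323 and 786, and the mirrored rule 3774. These are counts from 4 libraries and carry no test.

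**Figure D2:**
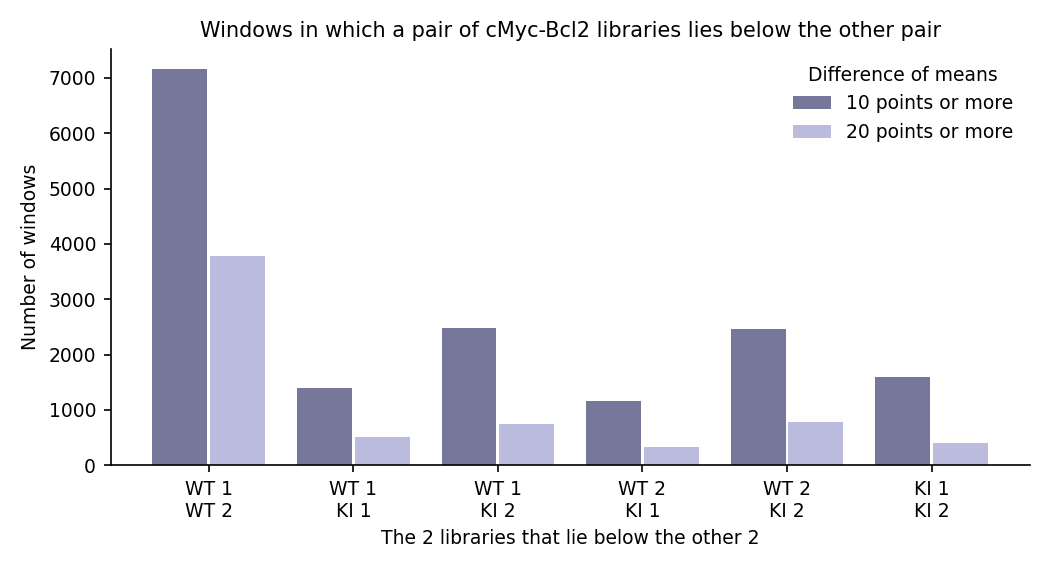
Number of cMyc-Bcl2 windows in which the 2 libraries named on the x axis both lie below the other 2, with means at least 10 points (dark) or at least 20 points (light) apart. KI is knockin. The losing windows are the bars at the right, 1590 and 404.

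The losing windows were poor in listed CpGs. That number, called density here, counts CpGs the assay covered and can fall short of those in the sequence. The Mettl22 window, for example, had 15 listed CpGs, while the promoter sequence inside it holds 24. They held a median of 6 CpG positions listed in any cMyc-Bcl2 library, against 10 over all windows, and a median of 3 counted CpGs against 5. Of the 1590, 1560 (98.1%) held under 20 listed CpGs, a class that made up 69.8% of all windows. In that class 4.03% of windows were losing. Of windows with 20 to 59 listed CpGs 25 (0.198%) were losing, and of those with 60 or more 5 (0.120%) were. The mirrored rule was met by 12.1%, 16.3% and 9.73% of windows in the same 3 classes. The WT mean was under 20%, with little room for a loss, in 7774 of 38749, 10928 of 12616 and 4058 of 4184 of their windows. The shares above thus do not separate density from WT level. At 20 to 80% in WT 6.03%, 1.58% and 1.90% were losing, and over 80% 4.02%, 0.810% and 4.76% (1 of 21).

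Most losing windows were highly methylated in WT. The WT mean was over 80% in 897, from 20 to 80% in 550 and under 20% in 143, with a median of 83.7% against 58.3% over all windows. As a share of the class, losing windows were most frequent at intermediate WT levels (5.56%), followed by windows over 80% (3.92%) and under 20% (0.628%). Over 80% the losing windows outnumbered the 434 windows (1.90%) that met the mirrored rule, and in the other 2 classes the order was the opposite, with 34.4% and 14.6% gaining. Levels close to 100% leave little room for a gain of 10 points, and levels close to 0 little room for a loss.

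**Figure D3:**
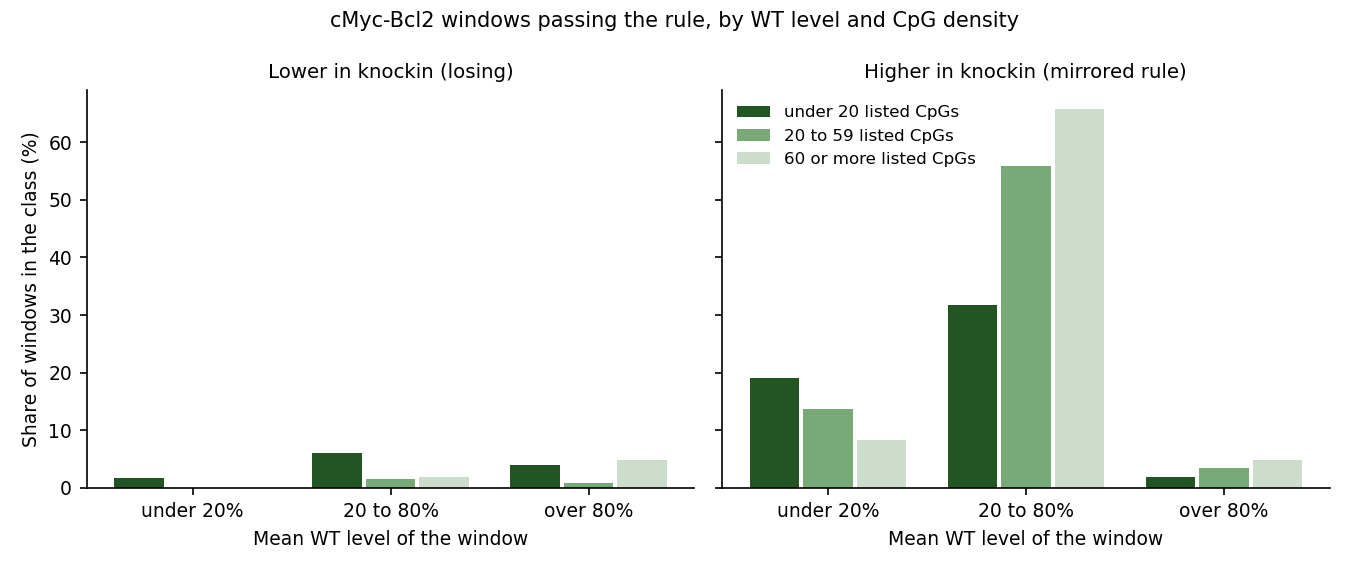
Share of cMyc-Bcl2 windows (%) that met the losing rule (left) or the mirrored rule (right), by mean WT level (x axis) and number of listed CpGs (shade). Losing windows reach 6.03% among windows under 20 listed CpGs at intermediate WT level, and the 4.76% at 60 or more listed CpGs and over 80% is 1 of 21 windows.

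Read depth moved with the losing windows. Their least covered library held a median of 87 reads, against 135 over all windows. Among windows under 20 listed CpGs, 4.79% were losing where the least covered library had 30 to 59 reads, 4.55% at 60 to 119, 3.43% at 120 to 239 and 1.92% at 240 or more. The share was thus lower in the deeper windows of the same density. The knockin share of reads relative to WT, after scaling to library totals, had a median log2 ratio of -0.23 in the losing windows and -0.20 over all windows. Among windows under 20 listed CpGs the order was the opposite, at -0.24 in the losing windows and -0.33 in all. The part of depth in the count was not tested.

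Losing windows were found on every autosome, from 2.37% of windows on chromosome 7 to 3.44% on chromosome 6. The nearest window with 60 or more listed CpGs was 134.5 kb away at the median, against 92.0 kb over all windows. Within 2 kb of such a window lay 2.39% of the losing windows and 14.1% of all windows. Restricted to under 20 listed CpGs these shares were 1.92% and 4.21%, so the losing windows were also less often near CpG-dense windows than sparse windows as a whole, a difference that was not tested. The nearest placed gene start was 83.2 kb away at the median in the sparse losing windows and 60.6 kb in all sparse windows. Only the 8519 genes whose promoters could be placed were counted. These comparisons of position were not matched for WT level.

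Losing windows were mostly isolated. Another losing window lay within 10 kb of 67 of them (4.21%), and a losing window lay within 10 kb of 3.09% of the other windows. Outside chromosome 18, 32 groups with no gap over 10 kb were formed, 3 of 3 windows and 29 of 2. The 235 covered windows directly next to a losing window differed by -0.27 points at the median, and 56.6% were lower in knockin, against 45.8% of all windows that were not losing.

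The 3 groups of 3 windows lay near the starts of Tmem30b, Snx18 and Ugt8a. Tmem30b encodes a subunit of phospholipid flippases, and its 3 windows on chromosome 12, 1.40 to 4.88 kb from the start, differed by -11.5, -25.4 and -43.9 points. The window at chr12:74652240-74652289 stood at 61.0% and 62.0% in WT and at 17.1% and 18.1% in knockin. Snx18 encodes a sorting nexin of membrane traffic, and its windows, 4.56 to 18.6 kb from the start, differed by -22.4 to -14.5 points. Ugt8a encodes the galactosyltransferase that makes the galactolipids of myelin. At its start 3 consecutive windows differed by -14.4 to -11.7 points, and the densest, chr3:125641007-125641569 with 49 counted CpGs, stood at 17.4% and 19.8% in WT and at 10.4% and 3.36% in knockin. In MLL-AF9 that window overlapped between genotypes, at 26.9%, 31.8% and 25.6% in WT and 34.8%, 18.1% and 18.6% in knockin.

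Within the windows the lower level was shared by most CpGs. Of 6869 counted CpGs, 5924 (86.2%) were lower in knockin by their mean level, and in 930 windows (58.5%) all of them were. In 397 windows a single CpG was at least 10 points lower, and in 13 none was. The forward and reverse cytosines of a CpG are read from separate DNA strands. Of 917 losing windows with at least 20 reads on each strand in every library, 857 were lower on both, with a median difference of -15.2 points on the forward and -14.8 points on the reverse strand. Since these reads also chose the windows, they describe the windows and do not test them.

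The 10 largest losses with at least 50 reads in every library ran from -65.1 to -48.6 points, in windows of 3 to 10 counted CpGs. In all 10 every counted CpG was lower in knockin. The largest, chr6:101141152-101141223, stood at 83.3% and 63.1% in WT and at 11.2% and 5.03% in knockin over 3 CpGs with at least 108 reads. The next, chr16:89577790-89577892, stood at 85.3% and 93.0% in WT and at 19.5% and 36.4% in knockin. The nearest placed gene starts were 187 and 643 kb away.

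The third, chr2:118381057-118381075, lay 5.64 kb from the start of Bmf, which encodes a protein that promotes apoptosis by binding Bcl2. It stood at 98.0% and 41.3% in WT and at 17.4% and 2.17% in knockin, over 3 CpGs with at least 51 reads, so the WT libraries themselves stood far apart. A window with closer replicates, chr2:117938770-117938964, held 10 counted CpGs and 367 or more reads. It stood at 80.9% and 80.9% in WT and at 43.0% and 15.9% in knockin. In MLL-AF9 the same window was at 90.1%, 97.0% and 92.2% in WT and 89.0%, 93.7% and 87.6% in knockin, with overlapping groups.

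Among the 5 losing windows with 60 or more listed CpGs the largest loss was at chr4:133807238-133807778, 13.2 kb from the start of Cnksr1, a scaffold protein of Ras signalling. Its 23 CpGs were at 36.7% and 30.1% in WT and at 1.78% and 1.62% in knockin, and all 23 were lower. In MLL-AF9 1 library of each genotype was methylated there, WT replicate 1 at 27% and knockin replicate 2 at 35.9%, and the other 4 were at 0 to 2.74%. Among windows of 20 to 59 listed CpGs the largest loss was at chr15:97084279-97084439, from 93.0% and 95.8% in WT to 35.1% and 71.1% in knockin. Under 20% in WT the largest was at chr1:182219723-182219895, from 16.6% and 21.9% to 1.27% and 1.18%.

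Promoters were rarely among the losing windows. This comparison was not matched for WT level, and a window with a WT mean under 10% cannot meet the rule. Of 8135 windows with a counted CpG in a placed promoter 28 were losing (0.344%), and 761 (9.35%) met the mirrored rule. They were 1.76% of the losing windows, while promoter windows were 14.6% of all windows. The 28 windows touched 29 genes. The WT mean was under 20% in 6 of them, from 20 to 80% in 14 and over 80% in 8. All promoters of losing windows contained the MspI site CCGG, a sequence that reads the same on both strands, as did 9602 of 9607 placed promoters and 52.8% of all RefSeq promoters of that length, and the assay cuts at these sites.

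At some promoters the lower mean came from 1 WT library. The window of Kdm8, which encodes a protein of the Jumonji family, stood at 39.2% and 1.70% in WT and at 0.40% and 0.80% in knockin over 35 CpGs. The window of 4833420G17Rik stood at 44.9% and 2.33% in WT and at 0.99% and 0.39% in knockin. In both, WT replicate 2 was within 2 points of the knockin libraries.

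Other promoter windows differed from both WT libraries. Cdsn encodes corneodesmosin of the skin, and its window stood at 82.7% and 95.3% in WT and at 73.1% and 51.2% in knockin. Fgf6, a fibroblast growth factor, stood at 87.4% and 91.4% in WT and at 75.0% and 73.0% in knockin. Adgrg1 encodes an adhesion receptor, and its window stood at 23.4% and 18.3% in WT and at 1.43% and 11.1% in knockin. A window of 40 counted CpGs shared by Ndufa13, a subunit of respiratory complex I, and Tssk6, a kinase of the testis, stood at 20.8% and 16.1% in WT and at 8.22% and 3.02% in knockin. Slc25a25, a carrier of the mitochondrial membrane, stood at 12.1% and 23.9% in WT and at 4.18% and 1.55% in knockin. In these windows no knockin library reached the lower WT library, as the rule requires, and the gap was widest for Fgf6. However, only 2 of the 8 counted CpGs of Fgf6 lay in the promoter sequence. There the genotypes overlapped, at 61.4% and 86.2% in WT and at 63.8% and 55.7% in knockin. They also overlapped in the promoter CpGs of Tssk6 (4 of 40) and Ndufa13 (8 of 40).

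For Pacsin1, Gm34655, Gramd2, Mettl22 and Ptprs the window was losing while the CpGs inside the 300 promoter bases differed by -0.31 to 2.37 points, so the lower levels lay outside the promoter. For Irf4, a transcription factor of lymphoid cells, 3 of 4 CpGs lay in the promoter. Its window stood at 25.8% and 14.6% in WT and at 6.21% and 11.03% in knockin, and the promoter CpGs differed by -3.75 points. In MLL-AF9 16 promoter windows were covered, of which 13 were higher and 3 lower in knockin. Of all windows covered in both models 76.1% were higher. The median difference of the 16 was 2.60 points, against 0.312 points over 7004 promoter windows, a comparison not matched for WT level.

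Gene lists chosen for this tissue were read through the placed promoters. Promoter windows were covered for 4 of 14 imprinted genes, 3 of 10 regulators of stem and myeloid cells, 5 of 8 germline genes and 11 Hox genes. None of these genes had a losing window at its promoter, while 6 of the Hox genes, 1 imprinted and 1 germline gene met the mirrored rule. Over all 7947 genes covered this way, 29 had a losing promoter window and 746 met the mirrored rule.

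In the MLL-AF9 libraries the losing windows were, at the median, higher in knockin. Of the 1590, 487 (30.6%) met the same coverage rule in all 6 MLL-AF9 libraries, out of 28077 windows covered in both models. The median level of these 487 was 68.1%, 72.5% and 64.9% in MLL-AF9 WT and 78.8%, 79.5% and 77.2% in knockin, so the library medians did not overlap. Over all 28077 windows they did not overlap either, at 3.8%, 4.4% and 3.8% in WT and 7.9%, 6.8% and 5.4% in knockin. In cMyc-Bcl2 the medians of the same windows were 77.2% and 79.3% in WT and 57.6% and 53.4% in knockin. The MLL-AF9 difference was 5.18 points higher in knockin at the median, against 0.756 points over all 28077 windows. With 20 reads per CpG, 42 losing windows were left and the medians were 2.04 and 0.329 points. With 10 reads it was higher in 393 of the 487 (80.7%), against 76.1% of all.

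**Figure D4:**
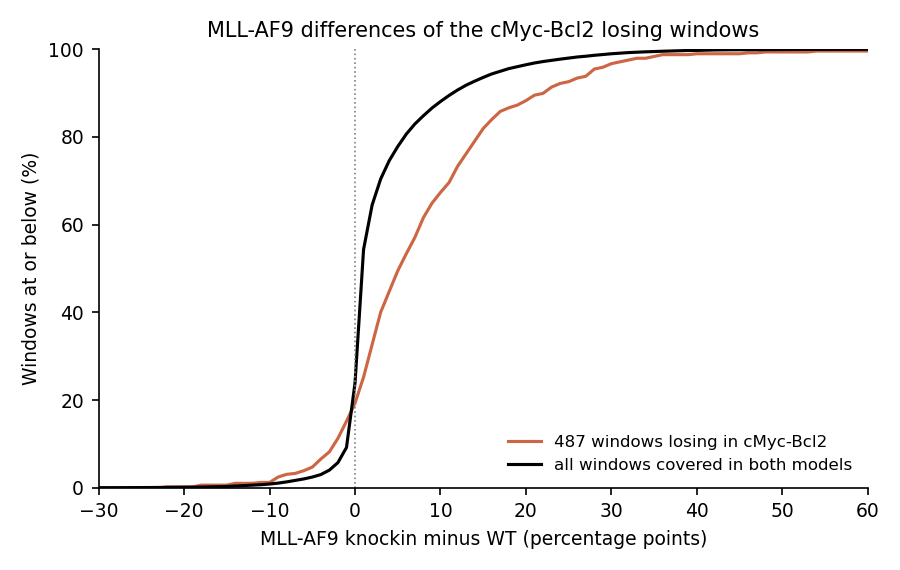
Share of windows (%) whose MLL-AF9 knockin minus WT difference (percentage points) lies at or below the value on the x axis, for the 487 losing windows (orange) and all 28077 windows covered in both models (black). The curve of the losing windows reaches its median at 5.18 points and that of all windows at 0.756 points, at 10 reads per CpG (2.04 and 0.329 points at 20 reads).

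All MLL-AF9 libraries of the knockin lay above all WT libraries in 132 losing windows (27.1%), against 18.9% of all windows. With a margin of at least 10 points the count was 97 (19.9%), against 6.64%. The opposite, all knockin libraries below all WT libraries, was seen in 8 losing windows (1.64%), against 1.34%. With the 10-point margin it was 2 (0.411%), against 0.171%. Without a margin the share of losing windows that were also lower in the MLL-AF9 knockin was thus near the background. With the margin it rested on 2 windows. The share that were higher was above the background in both counts. The background was not matched for level. The median MLL-AF9 WT level was 69.8% in the losing windows and 4.43% in all windows. Neither the higher nor the lower share can thus be read as a trait of the losing windows.

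The losing windows differed from other windows in WT level, and 17732 of the 28077 windows were under 20% in MLL-AF9 WT. Losing windows are therefore set beside all windows of the same MLL-AF9 WT class. At 20 to 80% the difference was 11.9 points at the median in 194 losing windows and 9.82 points in all 3858. Over 80% it was 2.30 points in 177 losing windows and 1.67 points in all 6487. Under 20% it was 4.70 points in 116 losing windows and 0.453 points in all 17732. Within the classes over 20% the losing windows thus lay close to all windows by their medians. Under 20% they stood above all windows, but there the classes differ in level, with a median MLL-AF9 WT level of 5.10% in the losing windows and 1.38% in all windows. By cMyc-Bcl2 WT level, which entered the rule, the MLL-AF9 median was 3.55 points in losing windows against 0.420 under 20%, 7.98 against 8.83 at 20 to 80% and 3.67 against 1.95 over 80%, so the order was not the same in every class.

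Calls in single windows were few. The quasi-binomial fit over all 30589 MLL-AF9 windows, moderated with limma, called 1 window lower in knockin (0.00327%) and 38 higher (0.124%) where the Benjamini-Hochberg adjusted p was below 0.05 and the genotypes were 10 or more points apart. Of the 487 losing windows, 0 were among the lower and 3 among the higher. At an unadjusted p under 0.05, 3 losing windows were lower and 118 (24.2%) higher, against 209 and 4191 (13.7%) of all windows, which were not matched for WT level. limma on M-values called 0 windows in either direction. In cMyc-Bcl2 the same fit called 3 of 55549 windows higher, with 6355 higher windows below an unadjusted p of 0.05. It called 0 windows lower (0.0%), with 1170 lower windows below that unadjusted p. The losing windows made up 720 of these, a contrast that had chosen them, and their lowest adjusted p was 0.0524. limma on M-values also called 0 windows lower there.

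The 3 losing windows called higher in MLL-AF9 had group means that differed in opposite directions in the models. The window at chr2:69509044-69509121, 52.1 kb from the start of Ppig, which encodes a prolyl isomerase, stood at 72.1% and 87.1% in cMyc-Bcl2 WT and at 69.8% and 41.0% in knockin. In MLL-AF9 its 6 CpGs were at 24.1%, 8.49% and 10.6% in WT and at 71.6%, 83.7% and 86.6% in knockin. The mean rose from 14.4% ± 8.46 (SD, n = 3) to 80.6% ± 7.93 (SD, n = 3), and all 6 CpGs were higher. The limma-moderated adjusted p was 0.0374. The MLL-AF9 groups did not overlap, and their order was opposite to the one the rule had fixed in cMyc-Bcl2. In cMyc-Bcl2 knockin replicate 1 was nearly level with WT replicate 1, and the window was not called in that contrast, which had chosen it.

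The other two windows lie on chromosome 9 and were named after their values were seen. Neither was called in cMyc-Bcl2, the contrast that had chosen them. At chr9:118598396-118598599 cMyc-Bcl2 stood at 87.9% and 95.9% in WT and at 86.8% and 67.4% in knockin. Knockin replicate 1 was thus nearly level with WT replicate 1. In MLL-AF9 that window rose by 39.7 points, from 15.2%, 15.8% and 12.2% to 45.3%, 60.5% and 56.6% (limma-moderated adjusted p = 0.0374). At chr9:119327205-119327316, 16 kb from the start of Acvr2b, a receptor for activins, cMyc-Bcl2 stood at 16.3% and 16.5% in WT and at 6.07% and 1.46% in knockin. In MLL-AF9 it rose by 27.1 points, from 6.92%, 7.52% and 3.07% to 28.3%, 37.9% and 32.7% (limma-moderated adjusted p = 0.0374). The number of losing windows called depended on single libraries. It was 0 without any 1 of MLL-AF9 WT replicates 1, 2 and 3 or without knockin replicate 2, 2 without knockin replicate 1, and 5 without knockin replicate 3. Over the alternatives the MLL-AF9 adjusted p of these 3 windows ranged from 0.0307 to 0.20 with the direction kept.

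The losing windows with the largest gains in MLL-AF9 outside these calls were at chr17:46809514-46809822, 1.59 kb from the start of Rrp36, a factor of ribosome assembly, and at chr13:113462107-113462262. The first was at 3.70%, 21.3% and 30.6% in MLL-AF9 WT and at 89.5%, 85.7% and 65.4% in knockin, and did not pass the test (limma-moderated adjusted p = 0.0986). The second was at 7.35%, 16.8% and 2.08% in WT and at 61.6%, 76.6% and 49.0% in knockin (limma-moderated adjusted p = 0.0884). In cMyc-Bcl2 both were methylated in WT, at 86.9% and 67.5% and at 83.4% and 97.2%.

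Of the 8 losing windows whose MLL-AF9 libraries were also lower without overlap, 1 had an adjusted p under 0.05. It lies at chr13:120277025-120277915, 0.576 kb from the placed start of Tmem267, a membrane protein, and 6.35 kb before the last CpG listed on that chromosome. With 95 it had the most listed CpGs of the losing windows, of which 50 were counted, and its least covered library held 3415 reads, 68.3 per CpG against a median of 24.3 over all windows. In cMyc-Bcl2 it stood at 91.9% and 89.3% in WT and at 81.3% and 72.6% in knockin, with 49 of 50 CpGs lower.

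In MLL-AF9 that window was at 86.2%, 86.7% and 84.9% in WT and at 77.8%, 77.6% and 78.8% in knockin, with all 47 counted CpGs lower. It fell by 7.88 points (limma-moderated adjusted p = 0.0192), which is under the 10 points required of a call. The adjusted p was 0.457 with limma on M-values and 0.0969 with the 4 groups in one fit. It was 0.0607 to 0.0870 without WT replicate 1, 2 or 3 or without knockin replicate 2, with a difference of -8.38 to -7.52 points. The largest of the 8 was at chr11:88181429-88181523, with MLL-AF9 levels of 92.3%, 96.8% and 97.7% in WT and 75.0%, 81.3% and 75.4% in knockin (limma-moderated adjusted p = 0.132). It held 3 CpGs, and it did not pass the test. The MLL-AF9 differences at chr17:31784919-31784958, chr5:128324794-128324867 and chr4:48703716-48703874 lay between -14.5 and -9.08 points and did not pass either (limma-moderated adjusted p = 0.260 to 0.451).

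**Figure D5:**
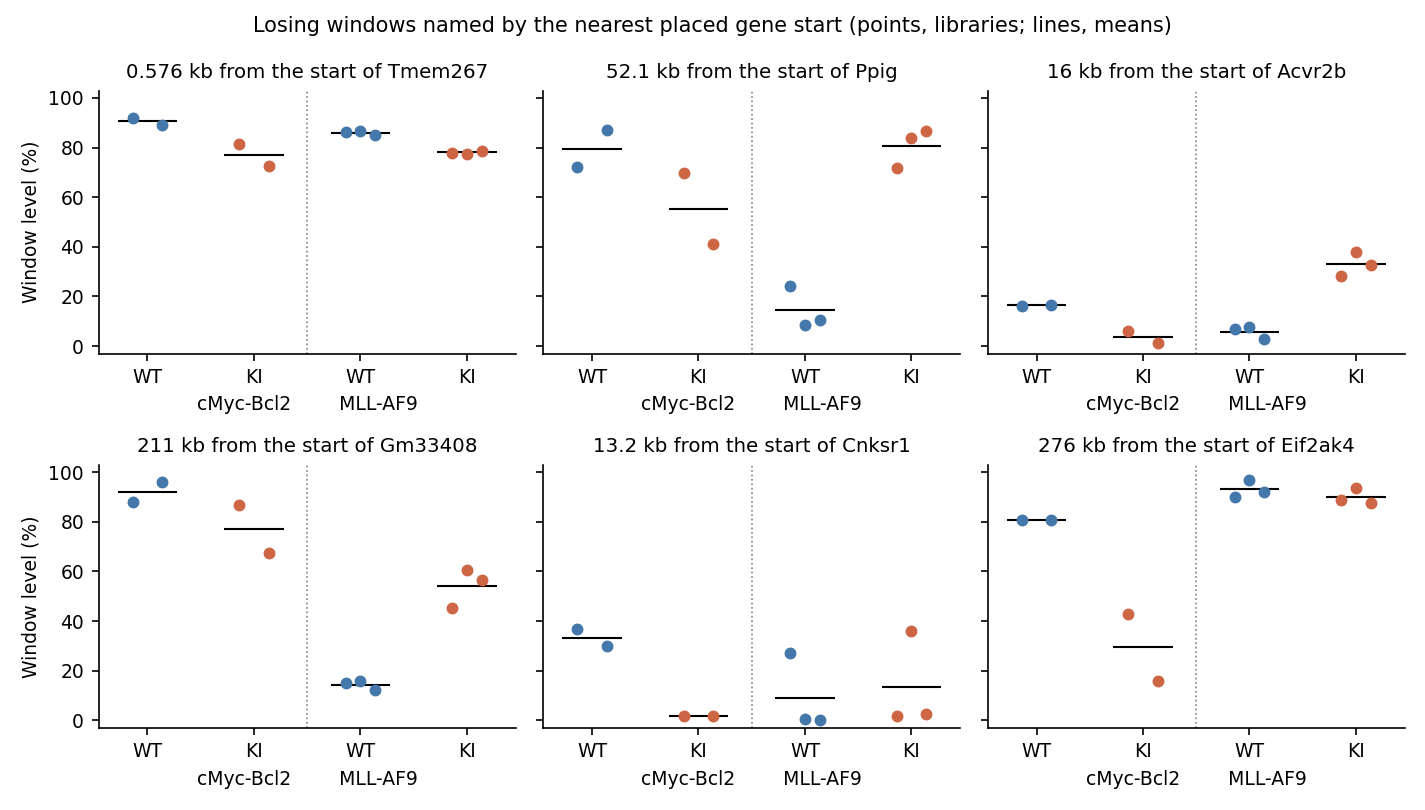
Methylation level (%) in every library of 6 losing windows, by model and genotype (WT, blue; knockin KI, orange; horizontal lines, group means). Panels are titled by the nearest placed gene start, which is up to 276 kb away. The window of Tmem267 is lower in knockin in both models, those of Ppig, Acvr2b and Gm33408 are lower in the cMyc-Bcl2 knockin but higher in the MLL-AF9 knockin, and those of Cnksr1 and Eif2ak4 overlap in MLL-AF9.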

How the data were processed

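The authors deposited, per library, a list of CpG positions in mm9, each with 2 read counts. The first was read as methylated and the second as unmethylated, as the mitochondrial calls show. The order and the meaning are not stated in the file headers. Reads were handled with Bismark 0.7.4, methylKit, CASAVA and Trim Galore 0.2.2, per the submitters' processing notes, with settings not given in the sources used here. The labels' protocols give MspI digestion of 0.3 to 1 µg of DNA and inserts of 40 to 280 bp.

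Each chromosome's list runs through the forward and then the reverse cytosines, and 21.1 to 30.8% of CpGs are listed on both strands. The strands were joined here. Windows are consecutive 1000-bp bins. A window's level is its summed methylated reads over all reads. PCR copies could not be told from separate molecules, and depth speaks to counting error alone.

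Each window was fitted with a quasi-binomial model over all windows of a model (dispersion moderated by limma 3.58.1 in R 4.3.3, held at 1 or above, F-test, Benjamini-Hochberg). In simulated MLL-AF9 data it recovered large differences and missed small ones, with a share of false calls somewhat above the threshold, so a window that was not called may still differ. The alternative, limma on M-values with 0.5 added to both counts, recovered fewer. Python 3.11.15, numpy 2.4.6 and pandas 2.3.3 were used for the rest.

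No genome was used. RefSeq promoter sequences (table build GRCm38.p6) were placed on mm9 by the exact spacing of their CpGs, 9607 of 31396 autosomal sequences. Of those placed in a first pass with 6 or more CpGs, 97.5% fell on their own chromosome. A second pass with 4 or more CpGs near neighbours placed 2625 of 14713, and 80 when the sequences were read backwards. Distances to genes therefore refer to placed starts, and exons and introns were not assigned.

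The losing windows, gene lists and rules were chosen with earlier results of these data known. Windows named were the 10 largest losses with at least 50 reads, the 5 highest and 5 lowest without overlap in MLL-AF9, 2 on each side of the threshold, the 3 longest groups, and the largest loss by density and WT class, leaving out chromosome 18. Other windows and the promoters were named after their values were seen. The alternatives were other coverage minimums, window sizes and starts, CpG minimums, weights, margins, coverage limits, chromosomes left out, unjoined strands and leaving out each library.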

Additional observations from a re-analysis of the deposited data

Results flagged for a closer look

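Over the 487 losing windows covered in both models, the library medians differed between genotypes in opposite directions. The mean of the library medians was 10.02 points higher in knockin than in WT in MLL-AF9, with all 3 knockin libraries above all 3 WT libraries. The same order was seen over all 28077 windows covered in both models, at 5.4% to 7.9% in knockin and 3.8% to 4.4% in WT. These were not matched for level, with a median MLL-AF9 WT level of 4.43% against 69.8% in the 487. By window, the median difference of the 487 was 5.18 points. In cMyc-Bcl2 the mean of the library medians of the 487 differed by -22.8 points, with both knockin libraries below both WT libraries. The choice of windows fixes that direction. Single windows did not all differ in opposite directions, and 94 of the 487 (19.3%) were lower in the MLL-AF9 knockin, against 23.7% of all 28077. The difference between the models was not tested.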

How the results depend on the processing

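The number of losing windows was 1590. It was 714 with 20 reads per CpG (33770 windows covered) and 430 with at least 5 CpGs per window (31881 covered). It was 404 with a margin of 20 points and 9876 with none, and 447 where the highest knockin library had to be 10 points below the lowest WT library, a choice made after the data were seen. Without 1 cMyc-Bcl2 library it ranged from 2288 to 4100, a rule that 3 libraries meet more easily than 4. Leaving out WT replicate 1 gave 3465, WT replicate 2 gave 2563 and knockin replicate 1 gave 4100. With strands as listed, also chosen after the data were seen, 1551 windows met the rule, of which 1408 were among the 1590.

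The median WT level of 83.7% became 78.7% with 20 reads, 85.7% with 5 reads, 77.8% with at least 5 CpGs and 81.5% with the wider gap between libraries. The median of 6 listed CpGs became 10 with at least 5 CpGs per window. The MLL-AF9 median difference of 5.18 points became 2.04 with 20 reads, where 42 losing windows were left and the median of all windows was 0.329. In the other 16 alternatives it was positive and within 2.84 points, the SD between library medians, and without 1 library it ranged from 4.20 to 5.996.

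In MLL-AF9 the 38 windows called higher became 0 with limma on M-values, 6 with 20 reads, 83 with 5 reads and 0 with the 4 groups in one fit, and 0 to 91 without 1 library. The 3 losing windows among them became 0, 1, 5 and 0, and 0 to 5. The 1 window called lower became 0 with M-values and 2 with no minimum difference, 1 of which was a losing window, and 0 to 1 without 1 library. In cMyc-Bcl2 the 0 windows called lower became 139 of 27020 with the 4 groups in one fit, among them 132 of the 463 losing windows covered there, a contrast that had itself chosen the losing windows. Without 1 library they were 0 to 46, of which 0 to 32 were losing, assuming that the lone library varies like the other group. Where not said, the cause was not tested.

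No paired analysis was possible because the labels carry no replicate numbers, and the numbers used here were given in accession order. With a median of 87 reads in the least covered library of a losing window and 2 libraries per group, depth and replicate number limit what can be said of a single window.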
